A study of Homo sapiens with 12 samples.

Results

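Cisplatin has to enter a cell, and can leave it again, through proteins that serve other substrates. Genes listed for platinum uptake, export or conjugation were followed here in HK-2 cells, a line immortalized from the human renal proximal tubule. The set was chosen by gene name and holds 10 of the 58735 genes in the count table. It has 3 genes for copper or organic cation carriers (SLC31A1, SLC31A2 and SLC22A2) and 2 for channel subunits (LRRC8A and LRRC8D). The others are 4 for exporters (ATP7A, ATP7B, ABCC2 and SLC47A1) and 1 for a conjugating enzyme (GSTP1).

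RNA of 12 samples in 4 groups of 3 was sequenced, with 48 h of treatment given for the drug groups and no time for Control. The Control group received H2O, the Iohexol group 75 mg I/mL of this iodinated contrast medium, the Cisplatin group 5 μM of this platinum drug, and the Vancomycin group 4 mM of this glycopeptide antibiotic. All groups were HK-2 cells, a single line without the blood flow, filtration and neighbouring cell types of a kidney. Nothing in the labels says that the 3 samples of a group were separate cultures, so the p-values measure the spread between these samples, which may be technical. Each library held between 14057282 and 18177109 counted reads, and 3 counts, the most that a count of 0 allows for, were worth 0.177 to 0.218 CPM (counts scaled to a common library total). Limits of this kind cover counting error only, since no molecular identifiers were described.

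Platinum drugs are polar and become charged in water, so they cross membranes poorly without a carrier. The copper transporter CTR1 (SLC31A1), the organic cation transporter OCT2 (SLC22A2) and volume-regulated anion channels of LRRC8 subunits are known routes in. The copper pumps ATP7A and ATP7B, the apical exporter MRP2 (ABCC2) and the proton-coupled exporter MATE1 (SLC47A1) are known routes out, and glutathione transferases such as GSTP1 act with glutathione on platinum and other reactive compounds. In the kidney, OCT2 on the basolateral side of the proximal tubule is the best known entry route for cisplatin.

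The labelled cell type was checked first. Of 13 proximal tubule markers, SLC22A6, the organic anion transporter OAT1, was at 0 in every library, and 6 (SLC22A6, SLC22A8, LRP2, SLC34A1, AQP1 and HNF4A) stayed under 1 CPM everywhere. The most abundant of them was the kidney transcription factor PAX8, and the sum of the 13 genes lay at 560 to 678 CPM in the Control libraries, 763 to 947 in those of iohexol, 324 to 344 in those of cisplatin and 818 to 909 in those of vancomycin. PAX8 transcripts were thus plentiful while several defining transport genes were near 0, and the sum was lowest in the 3 cisplatin libraries. The sum did not stand for every gene of the list. PAX8 had means of 372, 617, 131 and 407 CPM in the order just given. GGT1, chosen after its values were seen, had 190, 147, 169 and 363 CPM. Epithelial markers, led by the keratin KRT8, summed to 1001 to 1073, 771 to 874, 1312 to 1355 and 1298 to 1402 CPM in the same order, with CDH1 (E-cadherin) under 1 CPM in every library. The members of this list moved both ways: with cisplatin and with vancomycin KRT8 and KRT18 rose while the adhesion genes EPCAM and CDH2 fell, EPCAM by 1.51 and 0.44 and CDH2 by 1.06 and 0.95 on the log2 scale (adjusted p at most 0.000678 by edgeR's test), and with iohexol KRT18 and CDH2 fell. Of 4 fibroblast markers the collagen gene COL1A1 was the most abundant, at a sum of 25.8 to 34.9, 22.3 to 25.4, 47.1 to 52.2 and 41.2 to 44.7 CPM, while COL1A2 and COL3A1 stayed under 1 CPM in every library. Endothelial markers, led by PECAM1, summed to at most 4.21 CPM, with CDH5, VWF and KDR under 1 CPM everywhere. Distal nephron markers summed to at most 2.07 CPM and leukocyte markers to at most 0.405 CPM. The part of these markers in the results below was not tested. In bulk RNA, fewer cells of a type and less RNA per cell cannot be told apart.

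The 10 genes differed in level and in direction of change, as the plot of CPM by sample shows. A gene was called when the adjusted p of edgeR's quasi-likelihood test was under 0.05, and a DEG was a called gene with a log2 fold change above 1 or below -1. With cisplatin 8 of the 10 genes passed the filter on low counts, of which 4 rose and 4 fell, beside 59.8% of the 15876 genes tested called (29.2% higher, 30.6% lower). SLC31A2, LRRC8A, ABCC2 and GSTP1 rose, and SLC31A1, LRRC8D, ATP7A and ATP7B fell. ATP7B and SLC31A2 were DEGs, beside 16.3% of all genes tested, but SLC31A2 had 1 to 5 counts per Control library and passed the filter on low counts only through the drug groups in which it was high, so its calls add no support beyond its counts. With vancomycin 8 genes were tested, 3 rose (SLC31A2, LRRC8A and GSTP1) and 2 fell (LRRC8D and ATP7B), beside 57.9% of 15819 genes called (29% higher, 28.8% lower), and the only DEG was SLC31A2, with the same limit, beside 18.5% of all genes. With iohexol 7 genes were tested and 2 rose (ATP7A and ABCC2), beside 21% of 15657 genes called (11.2% higher, 9.77% lower). None of the 7 was a DEG with iohexol by edgeR, by an unadjusted p under 0.05 with the same fold, by DESeq2 or by limma-voom, although 4 had an unadjusted p under 0.05, and 5.28% of all genes were DEGs. Scaling by library size alone, or testing only genes with at least 10 counts in every sample, each made 1 of them a DEG.

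**Figure D1:**
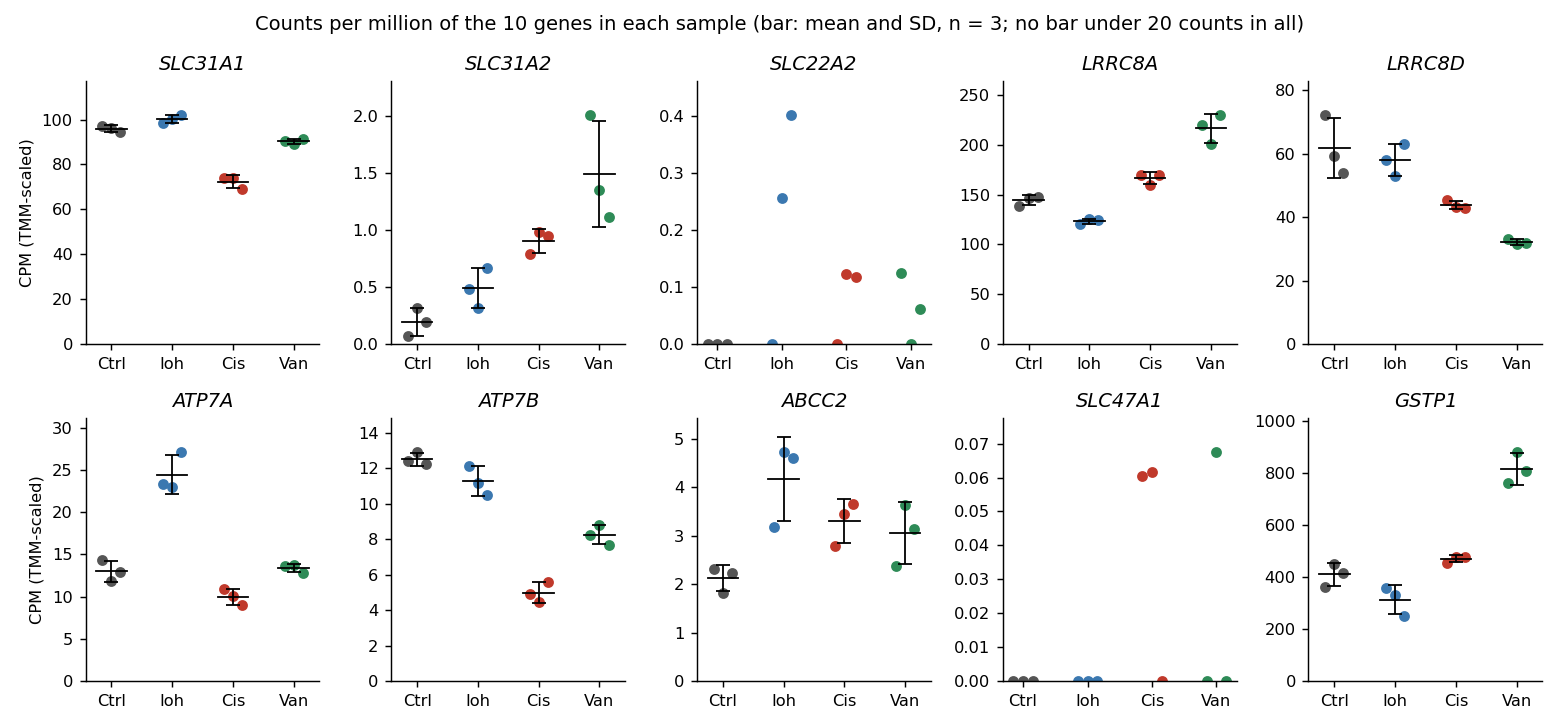
CPM, scaled by TMM, of each of the 10 genes in the 12 samples (Ctrl, Control; Ioh, Iohexol; Cis, Cisplatin; Van, Vancomycin). Points are samples and bars the mean and SD of 3, left out for the 2 genes with under 20 counts in all (SLC22A2 and SLC47A1); GSTP1 lay above 760 CPM in the 3 vancomycin samples and ATP7B under 5.7 CPM in the 3 cisplatin samples.

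The samples of the 2 groups did not overlap for 8 of 8 genes with cisplatin, where this held for 65.1% of all genes tested, for 7 of 8 with vancomycin (63.2% of all genes) and for 6 of 7 with iohexol (37.9%). The median log2 fold change of the genes tested was -0.10 with cisplatin, 0.24 with vancomycin and -0.07 with iohexol, and that of all genes 0.01, -0.01 and 0.01. A scaling by library size alone in place of TMM shifted the median of all genes by 0.22 with cisplatin, 0.07 with iohexol and -0.08 with vancomycin, and it moved the median of the genes followed here to 0.12 with cisplatin. The 3 comparisons share the Control libraries. Gene length moved with the drugs as well: over 4 length classes of equal size, the median log2 fold change of the shortest class was 0.26 with cisplatin and 0.21 with vancomycin, and that of the longest -0.24 and -0.16. GSTP1 and SLC31A2 belong to the shortest class, and ATP7A, ATP7B and ABCC2 to the longest. With iohexol the classes differed less, from 0.04 to -0.01, and the part of length in the results was not tested.

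**Figure D2:**
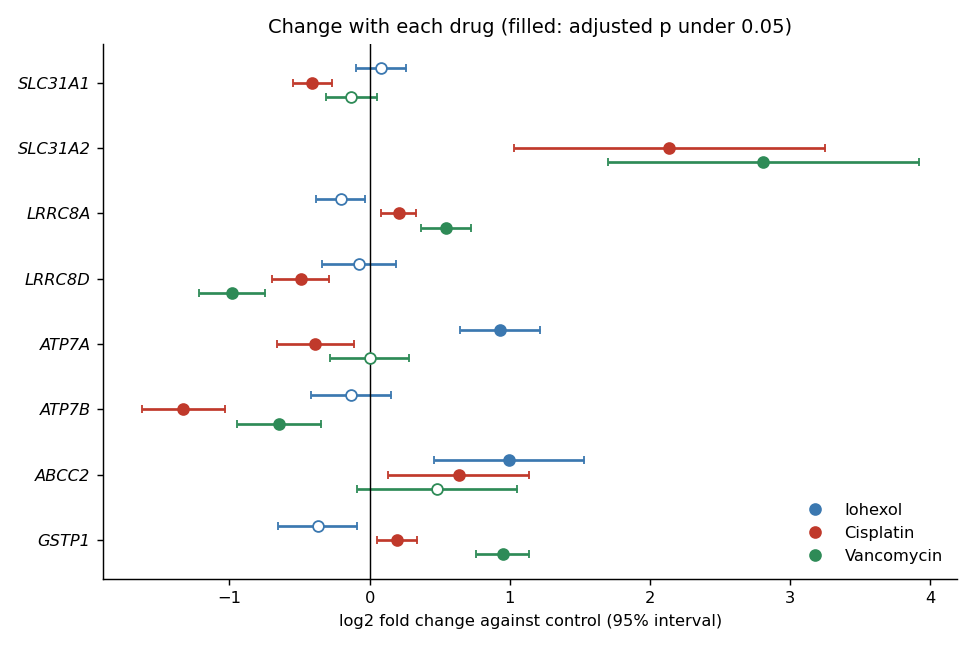
Log2 fold change of each gene tested against Control, with its 95% interval, for iohexol, cisplatin and vancomycin. Filled points have an adjusted p under 0.05; all 8 cisplatin points are filled, 4 to the left of 0 and 4 to the right.

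The promoters of the 4 genes that fell with cisplatin are shown because these genes shared that direction in that comparison, while with iohexol and vancomycin some were called and others not. Each is a stretch of 120 bases upstream of an annotated start, in the RefSeq sequence of GRCh38.p14, written from 5′ to 3′ on the strand of the gene, with every GC box (GGGCGG, or CCGCCC where it lies on the other strand) in capitals. The SLC31A1 stretch is chr9:113221424-113221543 (plus strand) and holds 3 boxes, that of LRRC8D is chr1:89820894-89821013 (plus strand) with 1, that of ATP7A is chrX:77910536-77910655 (plus strand) with 0, and that of ATP7B is chr13:52012133-52012252 (minus strand) with 2.
SLC31A1: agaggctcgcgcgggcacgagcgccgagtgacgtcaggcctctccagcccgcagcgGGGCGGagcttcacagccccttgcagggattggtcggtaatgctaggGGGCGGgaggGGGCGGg
LRRC8D: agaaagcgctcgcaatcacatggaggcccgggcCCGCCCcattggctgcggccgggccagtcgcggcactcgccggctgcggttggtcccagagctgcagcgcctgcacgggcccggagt
ATP7A: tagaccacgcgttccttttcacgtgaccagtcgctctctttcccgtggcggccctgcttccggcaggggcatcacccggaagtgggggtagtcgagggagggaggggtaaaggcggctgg
ATP7B: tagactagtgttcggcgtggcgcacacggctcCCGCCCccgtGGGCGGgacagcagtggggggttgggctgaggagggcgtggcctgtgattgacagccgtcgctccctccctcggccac

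The GC box is a common promoter element that Sp1-type zinc finger proteins can bind, and 45.0% of 35116 RefSeq promoter windows of 300 bases hold it on either strand. Those windows are longer than the stretches printed, so this share and the counts of boxes above are for unlike lengths. No window of these 4 genes holds TGACNNNGC, the core of the antioxidant response element, which 13.3% of all windows hold. TGCACNC or TGCGCNC, the core of the metal response element, is in 29.6% of all windows. It is not in the stretches printed, which are shorter, but it is in windows of 2 of the 4 genes, for LRRC8D 61 bases before a second start (89821939) and for ATP7B at 2 places, 93 and 36 bases before a start at 52012008, of which the first lies 31 bases after the start at 52012132. A match is a description and not a binding site, and windows were found for 8 of the 10 genes.

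Among the 3 carrier genes of the set, SLC31A1 was the only one expressed at a level well above the floor. It encodes CTR1, which forms a copper pore in the plasma membrane, and lies on the plus strand at chr9:113221562-113264492 (GRCh38, ENSG00000136868). Its CPM was 97.2, 96.2 and 94.3 in Control, 98.5, 100.3 and 101.9 with iohexol, 74.1, 74.0 and 69.0 with cisplatin, and 90.5, 89.0 and 91.4 with vancomycin. The 3 cisplatin samples lay below all 9 others, the vancomycin samples lay below Control and the iohexol samples above it. SLC31A1 fell with cisplatin by 0.41 on the log2 scale (SE 0.07, adjusted p = 4.3e-05 by edgeR's quasi-likelihood test), or 1.33-fold, and by 0.19 with library size only (adjusted p = 0.017). It was not called with iohexol (log2 fold change 0.08, SE 0.08, adjusted p = 0.529) or with vancomycin (-0.13, SE 0.09, adjusted p = 0.208), although library size only called it lower with vancomycin (-0.21, adjusted p = 0.0427). The order of mean levels was Iohexol, Control, Vancomycin, Cisplatin, of which only the last pair of neighbours passed the test (adjusted p = 0.000707), a call that was lost with library size scaling. Of the 31-base sequences of its transcripts 11.3% occur in other genes as well, the most in the pseudogene SLC31A1P1 (2.35%), and how reads shared with it were counted is not given in the sources used here.

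SLC31A2 encodes CTR2, a copper transporter of internal membranes, and lies before SLC31A1 on the same strand, at chr9:113150942-113164137 (plus strand, ENSG00000136867). It had 1, 5 and 3 counts in the Control libraries, 7, 5 and 10 with iohexol, 13, 16 and 16 with cisplatin, and 32, 20 and 18 with vancomycin. Counts in every cisplatin and vancomycin library were thus above those of every Control library. The log2 fold change was 2.14 with cisplatin (SE 0.53, adjusted p = 0.00206) and 2.81 with vancomycin (SE 0.54, adjusted p = 9.36e-05) by edgeR's test, from a Control mean of 0.195 CPM, which is at the floor of 3 counts. The gene passed the filter on low counts only through the drug groups in which it was high, so these calls add no support beyond the counts. With iohexol it did not pass, and a fit of all genes with at least 1 count gave 1.25 (adjusted p = 0.387). Of its exonic bases 1579, or 63.1%, overlap exons of FKBP15 on the opposite strand, and FKBP15 had 12855 counts over the 12 libraries where SLC31A2 had 146. Without strand, reads of the pair cannot be told apart, and the strand setting is not given in the sources used here, so the SLC31A2 values are uncertain. FKBP15 itself had 64.9 CPM in Control and 76.6 with cisplatin, where it rose by 0.24 (adjusted p = 0.00884), and its log2 fold change with vancomycin was 0.15 (adjusted p = 0.174).

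SLC22A2, for OCT2, is at chr6:160171061-160277638 (minus strand, ENSG00000112499). It was at 0 in all 3 Control libraries, where the counts allow at most 0.188 to 0.218 CPM, and had 0, 4 and 6 counts with iohexol, 0, 2 and 2 with cisplatin and 2, 0 and 1 with vancomycin. No group had more than 10 counts in sum, and the gene did not pass the filter on low counts. OCT2 transcripts were therefore not detectable in Control at this depth and close to the floor elsewhere.

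Other organic cation and anion carriers were counted from a list of 8 genes. Among the genes of this and the lists that follow, SLC22A4, SLC29A4, SLC47A2, SLC22A8, LRRC8C, ATOX1, CCS, ABCC1, ABCC5, GSTO1, MGST1, MGST2, MGST3, GSTM3, GCLC, GCLM, SLC3A2 and MT1A fell outside the naming rule and were chosen after their values were seen. With cisplatin 4 of the 8 were tested, of which SLC22A4 rose (log2 fold change 0.38, adjusted p = 0.032) and SLC22A3 and SLC29A4 fell, by 0.78 (adjusted p = 0.00977) and 0.71 (adjusted p = 6.29e-05) by edgeR's test, beside 29.2% of all genes higher and 30.6% lower. SLC22A3, for OCT3, fell with iohexol too, by 1.11 (adjusted p = 0.00638). With vancomycin the carnitine carrier SLC22A5 fell by 1.05 (adjusted p = 3.42e-07). SLC29A4, for the monoamine transporter PMAT, had a mean of 21.4 CPM in Control and 28.4 with iohexol, where it rose by 0.43 (adjusted p = 0.0395). With iohexol 1 of 5 carriers tested thus rose and 1 fell, beside 11.2% of all genes higher and 9.77% lower. SLC47A2, for MATE2, had between 0 and 14 counts per library and SLC22A8 at most 1.

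LRRC8A is the obligatory subunit of the volume-regulated anion channel, a hexamer that opens when cells swell, and LRRC8D is the partner subunit best known for passage of platinum drugs and of larger organic substrates. LRRC8A (chr9:128882112-128918039, plus strand, ENSG00000136802) had 138, 147 and 147 CPM in Control, 120.3, 125 and 124 with iohexol, 170.1, 160.0 and 169 with cisplatin, and 219, 200.6 and 229 with vancomycin. No sample of a group overlapped Control, and the drugs stood on both sides of it, iohexol below and the others above. LRRC8A rose with cisplatin by 0.21 (SE 0.06, adjusted p = 0.00682) and with vancomycin by 0.55 (SE 0.09, adjusted p = 1.06e-05), and its log2 fold change with iohexol was -0.21 (SE 0.08, adjusted p = 0.0935, edgeR), which a fit of all 4 groups called (adjusted p = 0.0311). With library size only the cisplatin value of LRRC8A was 0.43.

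LRRC8D (chr1:89821014-89936611, plus strand, ENSG00000171492) had 72.1, 59.3 and 53.8 CPM in Control, 57.9, 52.9 and 63.1 with iohexol, 45.4, 43.3 and 42.9 with cisplatin, and 33.1, 31.5 and 31.7 with vancomycin. Here the cisplatin samples lay below every Control and iohexol sample and the vancomycin samples below every cisplatin sample. It fell by 0.49 with cisplatin (SE 0.10, adjusted p = 0.000268, and by 0.27 with library size only) and by 0.98 with vancomycin (SE 0.11, adjusted p = 9.03e-08), while iohexol gave -0.07 (SE 0.12, adjusted p = 0.716, edgeR) with overlapping samples. The means were in the order Control, Iohexol, Cisplatin, Vancomycin, and each pair of neighbours but the first passed the test.

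The 2 subunits moved in opposite directions with cisplatin and with vancomycin. On the length-scaled level (TPM, counts per base of gene length scaled to a common total, from the gene lengths of the count table) the ratio of LRRC8A to LRRC8D was 2.21 ± 0.388 in Control, 1.98 ± 0.194 with iohexol, 3.52 ± 0.127 with cisplatin and 6.26 ± 0.408 with vancomycin (SD, n = 3). Control values ran from 1.78 to 2.54, cisplatin values from 3.42 to 3.66 and vancomycin values from 5.91 to 6.71, so these 3 groups did not overlap. LRRC8D made up 25.7% of the summed TPM of the 5 LRRC8 subunits in Control, 27.6% with iohexol, 18.3% with cisplatin and 12.6% with vancomycin, and LRRC8A 55.8%, 54.5%, 64.4% and 78.5%. No test was made on these ratios, and a transcript ratio does not give the make-up of a channel.

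**Figure D3:**
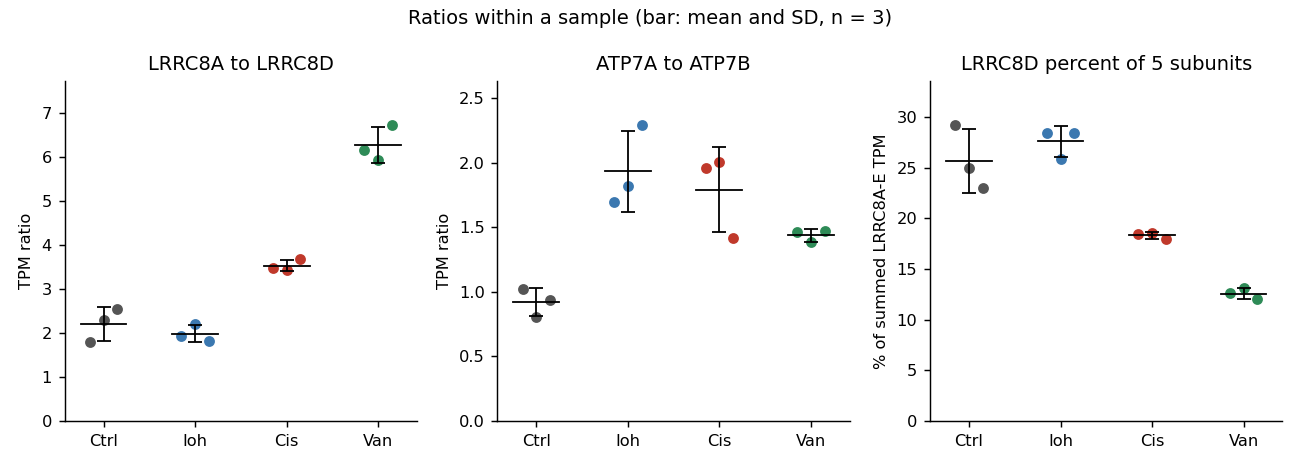
Ratio of LRRC8A to LRRC8D and of ATP7A to ATP7B in TPM, and the percent of the summed TPM of LRRC8A to LRRC8E that was LRRC8D, in each sample with mean and SD (n = 3). The share of LRRC8D was between 12.0% and 13.1% with vancomycin and between 23.0% and 29.2% in Control.

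Of the other 3 subunits, LRRC8B fell by 0.54 with cisplatin (adjusted p = 5.33e-05) and by 1.43 with vancomycin (adjusted p = 2.78e-10), from 41.1 CPM in Control to 28.3 and 15.7. LRRC8C fell with vancomycin by 0.87 (adjusted p = 4.33e-06) and was not called with cisplatin (-0.05, adjusted p = 0.664). LRRC8E, a subunit with a narrower tissue range, rose 2.30-fold with cisplatin (adjusted p = 4.79e-05), from 3.45 to 7.98 CPM. With iohexol LRRC8B had a log2 fold change of -0.30 (unadjusted p = 0.0221, adjusted p = 0.0841), LRRC8C of -0.17 (adjusted p = 0.477) and LRRC8E of 0.05 (adjusted p = 0.907) by edgeR's test.

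ATP7A and ATP7B are P-type pumps that load copper into secreted enzymes and move to the cell surface or to vesicles when copper is high, and they are known for their part in platinum export. ATP7A (chrX:77910656-78050395, plus strand, ENSG00000165240) had 14.3, 11.8 and 13.0 CPM in Control, 23.3, 23.0 and 27.1 with iohexol, 10.8, 10.0 and 8.98 with cisplatin, and 13.6, 13.7 and 12.8 with vancomycin. Iohexol samples lay above all 9 others and cisplatin samples below them, and vancomycin samples lay within the range of Control. ATP7A rose with iohexol by 0.93 (SE 0.13, adjusted p = 0.00041), or 1.90-fold, and fell with cisplatin by 0.39 (SE 0.13, adjusted p = 0.0159, edgeR). The cisplatin call was lost with library size scaling (-0.17, adjusted p = 0.266) and without cisplatin sample 3 (-0.31, adjusted p = 0.0884). With vancomycin the log2 fold change was close to 0 with a 95% interval of -0.28 to 0.28. ATP7A shares 97 exonic bases (0.888%) with PGK1 on the same strand, and PGK1 had 192615 counts over the 12 libraries where ATP7A had 2807. PGK1 fell by 0.56 with iohexol (adjusted p = 0.000242) and by 1.00 with cisplatin (adjusted p = 2.43e-11), and rose by 0.39 with vancomycin (adjusted p = 0.000249). The part of such reads in the ATP7A values was not tested.

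ATP7B (chr13:51930436-52012125, minus strand, ENSG00000123191), the gene mutated in Wilson disease, had 12.4, 12.9 and 12.2 CPM in Control, 12.2, 11.2 and 10.5 with iohexol, 4.91, 4.43 and 5.61 with cisplatin, and 8.26, 8.78 and 7.70 with vancomycin. The 3 cisplatin samples were the lowest, the vancomycin samples came next, and the highest iohexol sample was just under the lowest Control sample. It fell by 1.33 with cisplatin (SE 0.14, adjusted p = 3.23e-07), or 2.51-fold, and by 0.65 with vancomycin (SE 0.15, adjusted p = 0.000556, edgeR), and iohexol gave -0.13 (SE 0.13, adjusted p = 0.522). In TPM the ratio of ATP7A to ATP7B was 0.922 ± 0.107 in Control, 1.93 ± 0.314 with iohexol, 1.79 ± 0.327 with cisplatin and 1.44 ± 0.0495 with vancomycin (SD, n = 3). Every treated sample was above the highest Control value of 1.02. The mean TPM of ATP7A was higher than in Control with iohexol, and that of ATP7B was lower with cisplatin and vancomycin.

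A list of 12 other copper genes was counted beside the pumps. With cisplatin 5 of 10 tested rose and 3 fell, with vancomycin 6 rose and 2 fell, and with iohexol 2 fell and 0 rose, beside 59.8%, 57.9% and 21% of all genes called. The iohexol share was thus near that of all genes. The median log2 fold change was 0.13, 0.62 and -0.23 in that order, and these signs were the same under RLE size factors and under library size alone. ATOX1, the chaperone that hands copper to ATP7A and ATP7B, rose by 0.81 with cisplatin (adjusted p = 1.86e-06) and by 0.91 with vancomycin (adjusted p = 3.42e-07), from 22.2 CPM to 39.1 and 42.9. CCS, the chaperone for superoxide dismutase, rose by 0.91 (adjusted p = 4.48e-05) and 0.89 (adjusted p = 3.42e-05). COMMD1, a partner of the ATP7 pumps, fell by 1.69 with cisplatin (adjusted p = 2.22e-06) and by 0.81 with iohexol (adjusted p = 0.0182), and rose by 0.60 with vancomycin (adjusted p = 0.00165). Of the metalloreductases, STEAP2 fell by 1.36 with cisplatin (adjusted p = 9.55e-06) and STEAP3 by 1.02 (adjusted p = 1.7e-08), and STEAP3 fell with iohexol by 0.82 (adjusted p = 0.00071). COX11, an assembly factor of cytochrome oxidase, fell with vancomycin by 1.12 (adjusted p = 2.3e-09).

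ABCC2 (chr10:99782640-99852594, plus strand, ENSG00000023839) was expressed at a low level. Its CPM was 2.32, 1.82 and 2.24 in Control, 3.18, 4.73 and 4.61 with iohexol, 2.79, 3.45 and 3.66 with cisplatin, and 2.38, 3.65 and 3.14 with vancomycin, from 29 to 74 counts per library. All treated samples were above the highest Control sample, the lowest vancomycin sample by little. It rose with iohexol by 0.99 (SE 0.24, adjusted p = 0.0137) and with cisplatin by 0.64 (SE 0.24, adjusted p = 0.029), and vancomycin gave 0.48 (SE 0.28, adjusted p = 0.142, edgeR). The iohexol call was lost without iohexol sample 2 (adjusted p = 0.0626) or Control sample 2 (adjusted p = 0.0689). The cisplatin call was lost with DESeq2 (adjusted p = 0.0616), in the fit of all genes with at least 1 count (adjusted p = 0.0627), and without cisplatin sample 2 (0.0786), cisplatin sample 3 (0.105) or Control sample 2 (0.117).

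SLC47A1 (chr17:19495385-19579034, plus strand, ENSG00000142494) had 1 count in each of 2 cisplatin libraries and in 1 vancomycin library, and 0 in the other 9. A count of 0 allows up to 0.177 to 0.218 CPM. MATE1 transcripts were thus not detected in those 9 libraries and rested on single reads elsewhere, and no fold change is given.

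Of 7 other ABC exporters, known for drug and conjugate export, 6 were tested with cisplatin and 5 fell, beside 30.6% of all genes lower, with a median log2 fold change of -0.38 (3 fell, median -0.17, with library size scaling). With iohexol 1 of 7 rose (ABCC5, by 0.26, adjusted p = 0.0439) and 1 fell (ABCB1), beside 21% of all genes called, but with RLE size factors 0 rose and 2 fell, and with library size only 2 rose and 0 fell, so that neither direction held under every scaling. ABCC4, for MRP4, fell by 1.41 with cisplatin (adjusted p = 1.13e-10) and by 1.08 with vancomycin (adjusted p = 4.64e-09), from 89.5 CPM to 33.6 and 43.6. ABCC1, for MRP1, fell with cisplatin by 0.56 (adjusted p = 1e-06). ABCB1, for P-glycoprotein, fell by 1.61 with vancomycin (adjusted p = 3.43e-13) and by 0.34 with cisplatin (adjusted p = 0.000207), and iohexol gave -0.33 (adjusted p = 0.0203), a call lost with library size only. With vancomycin 2 of 7 rose and 2 fell, near the 29% of all genes higher and 28.8% lower. ABCC3 rose by 1.42 (adjusted p = 3.72e-10). ABCG2 had 3 to 17 counts per Control library and 84 to 125 with vancomycin, so it passed the filter in that comparison through the group in which it was high, and its call adds no support beyond the counts.

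GSTP1 (chr11:67583595-67586656, plus strand, ENSG00000084207) had the highest TPM of the 10 genes in every group. Its CPM was 363, 450.2 and 416 in Control, 357, 332 and 248 with iohexol, 453, 478 and 476 with cisplatin, and 760.1, 879 and 805 with vancomycin. The vancomycin samples lay above all others, the cisplatin samples just above the highest Control sample and the iohexol samples below the lowest. It rose with vancomycin by 0.95 (SE 0.09, adjusted p = 4.02e-09), or 1.93-fold, and with cisplatin by 0.19 (SE 0.07, adjusted p = 0.0186, edgeR). The cisplatin call was lost in the fit of all 4 groups (adjusted p = 0.132) and without cisplatin sample 2 (0.0709) or 3 (0.0596), and the log2 fold change was 0.41 with library size scaling. With iohexol it was -0.37 (SE 0.13, adjusted p = 0.0614), which DESeq2 (adjusted p = 0.0268), the fit of all genes with at least 1 count (0.000429), the fit of all 4 groups (0.0105) and the fits without iohexol sample 1 (0.0389) or Control sample 1 (0.0335) called as lower.

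The GSTP1 start region is shown because it holds both the antioxidant core and a GC box close together. The 30 bases at chr11:67583736-67583765 (GRCh38.p14, plus strand) contain TGACTCAGC, which matches TGACNNNGC from 66 bases before the RefSeq start, and GGGCGG 53 bases before it, both in capitals. All 30 bases are exonic in the GENCODE annotation, in which GSTP1 starts at 67583595, so they lie upstream of the RefSeq start only.
GSTP1: gccggcgccgTGACTCAGCactgGGGCGGa

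Of the 8 genes with a window, GSTP1 was the one that held TGACNNNGC, beside 13.3% of all windows.

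GSTP1 made up 65.8% ± 2.71 of the summed TPM of the glutathione transferases counted here in Control, 60.5% ± 4.39 with iohexol, 69.6% ± 0.644 with cisplatin and 68.5% ± 0.952 with vancomycin (SD, n = 3). Of 9 other transferases tested, 7 rose and 1 fell with vancomycin (median 0.65), among them GSTO1 by 0.94 (adjusted p = 1.18e-08), MGST2 by 0.93 (adjusted p = 3.87e-06) and MGST1 by 0.70 (adjusted p = 6.93e-07). With cisplatin 1 rose and 4 fell (median -0.07, and 3 rose and 2 fell with a median of 0.15 under library size scaling), GSTM3 rising by 0.59 (adjusted p = 6.03e-06) and MGST3 falling by 0.76 (adjusted p = 1.87e-07). GSTO2 fell with cisplatin by 1.10 (adjusted p = 1.35e-05) and with vancomycin by 0.62 (adjusted p = 0.00352). With iohexol 2 rose and 2 fell. The shares of all genes called were 57.9% with vancomycin, 59.8% with cisplatin and 21% with iohexol.

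Glutathione is made from cystine taken up by the exchanger SLC7A11 with SLC3A2 and joined by the ligase of GCLC and GCLM and by GSS. Of the genes for its supply, 8 of 10 tested rose with vancomycin and 0 fell (median 0.85), 3 of 9 rose and 2 fell with cisplatin (median 0.17), and 4 of 9 rose and 0 fell with iohexol (median 0.27), beside 29%, 29.2% and 11.2% of all genes higher. With cisplatin the 5 of 9 called were near the 59.8% of all genes. The number that rose with iohexol was 3 with RLE size factors and 5 with library size only, and with cisplatin it was 4 and 5. SLC7A11 had 33.7 CPM in Control, 56.7 with iohexol, 11.6 with cisplatin and 80.4 with vancomycin. It rose by 0.77 with iohexol (adjusted p = 0.00205) and by 1.22 with vancomycin (adjusted p = 9.13e-09), and fell by 1.54 with cisplatin (adjusted p = 7.26e-09). GCLC rose by 0.41 with cisplatin (adjusted p = 0.000553) and by 0.81 with vancomycin (adjusted p = 4.14e-07), and its iohexol value of 0.32 (adjusted p = 0.0486) was the closest to the threshold of the 4 calls. GCLM rose with vancomycin by 0.93 (adjusted p = 3.14e-08) and SLC3A2 by 0.93 (adjusted p = 3.6e-09). The peptidase ANPEP rose by 1.75 with iohexol (adjusted p = 0.000254) and fell by 1.57 with cisplatin (adjusted p = 0.00479), passing the filter there through Control, since the cisplatin libraries had 3 to 13 counts. GGT5 had 0 to 8 counts per Control library and 22 to 43 with vancomycin, so it passed the filter through the group in which it was high, and its place among the 8 genes that rose adds no support beyond the counts.

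Metallothioneins are small cysteine-rich proteins that hold zinc and copper and can bind platinum. Of 7 tested, 6 fell with iohexol (median -2.96, beside 9.77% of all genes lower), 4 fell and 1 rose with cisplatin (median -0.61, beside 59.8% of all genes called, 30.6% lower) and 6 fell with vancomycin (median -0.99, beside 28.8% lower), with the same counts under RLE size factors and library size alone. MT2A had 1045 CPM in Control, 244 with iohexol, 318 with cisplatin and 495 with vancomycin, a fall of 2.08, 1.72 and 1.12 on the log2 scale (adjusted p = 2.07e-07, 2.65e-12 and 3.47e-10 by edgeR). MT1E fell by 3.37, 0.73 and 1.65, and MT1G by 4.37 with iohexol and 1.82 with vancomycin (adjusted p = 2.07e-07 and 9.91e-09). MT1A, with a mean of 1.40 CPM in Control and 2.52 with cisplatin, rose with cisplatin by 0.84 (adjusted p = 0.014).

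**Figure D4:**
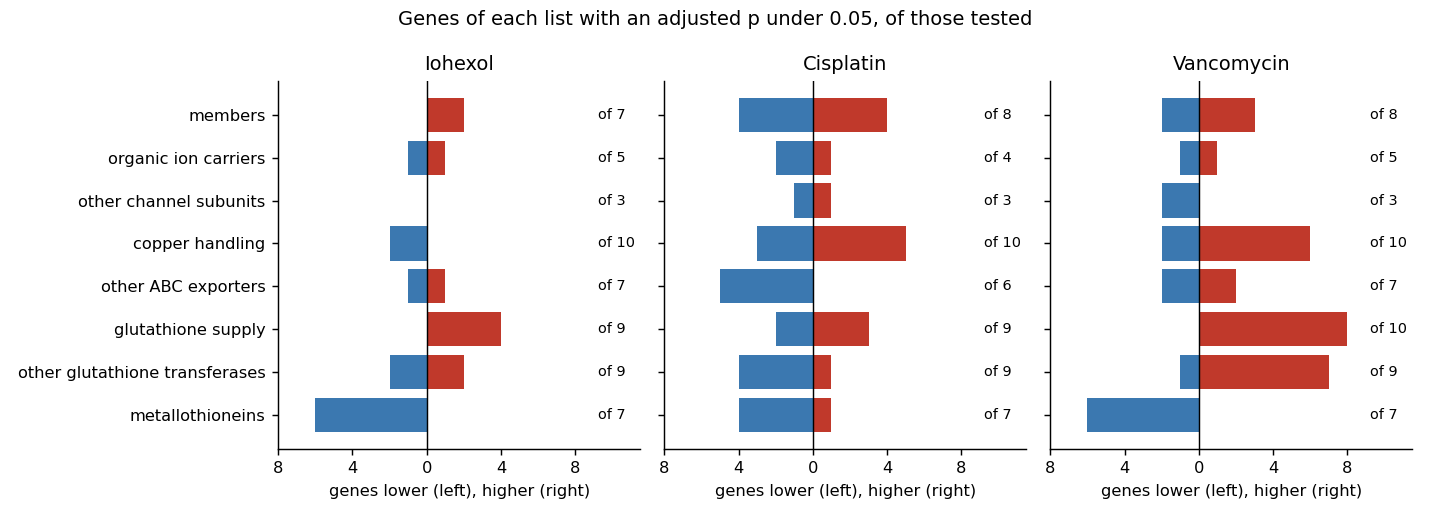
Number of genes in each list with an adjusted p under 0.05 that were lower (bars to the left) or higher (bars to the right) than Control with each drug, and the number tested (members, the 10 genes followed here). Metallothioneins were lower in 6 of 7 with iohexol and with vancomycin, and glutathione supply genes higher in 8 of 10 with vancomycin.

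The drugs were then compared with each other in a fit of all 12 samples, with 8 of the 10 genes tested. Between cisplatin and iohexol 6 were called, 2 higher and 4 lower with cisplatin, beside 54% of 17073 genes (26% higher, 27.9% lower), and the samples of 7 did not overlap, beside 60.9% of all genes. ATP7A was lower with cisplatin by 1.30 (log2 difference -1.30, SE 0.12, adjusted p = 2.42e-08), the largest difference of this pair, followed by ATP7B (-1.18, SE 0.14, adjusted p = 6.51e-07), and both were DEGs (17.5% of all genes). GSTP1 was higher by 0.59 (adjusted p = 0.000113) and LRRC8A by 0.43 (adjusted p = 5.54e-05), and SLC31A1 (-0.47, adjusted p = 1.67e-05) and LRRC8D (-0.40, adjusted p = 0.00262) were lower. SLC31A2 (0.88, 95% interval -0.07 to 1.83) and ABCC2 (-0.34, -0.82 to 0.14) were not called.

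Between cisplatin and vancomycin 6 genes were called, 1 higher and 5 lower with cisplatin, beside 64.7% of all genes (30% higher, 34.7% lower), and the samples of 7 did not overlap, beside 71.2% of all genes. LRRC8D was higher with cisplatin (0.45, SE 0.11, adjusted p = 0.000891), and GSTP1 (-0.80, adjusted p = 1.94e-06), ATP7B (-0.72, adjusted p = 0.000185), ATP7A (-0.43, adjusted p = 0.00567), LRRC8A (-0.38, adjusted p = 0.000155) and SLC31A1 (-0.32, adjusted p = 0.000707) were lower. With library size scaling the calls for SLC31A1 (0.02, adjusted p = 0.847), LRRC8A (-0.04, adjusted p = 0.616) and ATP7A (-0.09, adjusted p = 0.526) were lost. None of the 8 was a DEG by edgeR, DESeq2, limma-voom or an unadjusted p under 0.05 with the same fold, where 28.5% of all genes were.

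Between iohexol and vancomycin 6 genes were called, 3 each way, beside 56.6% of all genes (27.6% higher, 29% lower), and the samples of 7 did not overlap, beside 59.4% of all genes. With iohexol ATP7A (0.87, adjusted p = 3.64e-06), LRRC8D (0.85, adjusted p = 9.07e-07) and ATP7B (0.45, adjusted p = 0.00708) were higher, and GSTP1 (-1.38, adjusted p = 1.49e-09), LRRC8A (-0.81, adjusted p = 1.42e-08) and SLC31A2 (-1.59, adjusted p = 0.00402) were lower. GSTP1 and SLC31A2 were DEGs, beside 20.1% of all genes, but SLC31A2 passed the filter through the groups in which it was high, and its call adds no support beyond the counts given above. SLC31A1 differed by 0.15 (95% interval 0.00 to 0.30, adjusted p = 0.0797) and ABCC2 by 0.45 (-0.03 to 0.94, adjusted p = 0.101). SLC31A1 was called with DESeq2 (adjusted p = 0.0385), with at least 10 counts in every sample (0.0347) and with library size only (0.36, adjusted p = 0.000239), and ABCC2 with library size only (0.66, adjusted p = 0.0182) and without iohexol sample 1 (0.0399), so that all 8 genes were called with library size only.

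Levels of different genes were compared on the TPM scale only. GSTP1 had 785 TPM in Control (693 to 849), followed by LRRC8A at 101, SLC31A1 at 68.6, LRRC8D at 46.6, ATP7B at 4.74, ATP7A at 4.37, ABCC2 at 0.995 and SLC31A2 at 0.284. The Control samples of neighbouring genes did not overlap at any step down to LRRC8D, and those of ATP7B (4.69 to 4.82) and ATP7A (3.89 to 4.79) did. With iohexol ATP7A (8.71 TPM) stood above ATP7B (4.54 TPM), and with cisplatin (3.64 and 2.06) and vancomycin (3.85 and 2.68) as well.

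**Figure D5:**
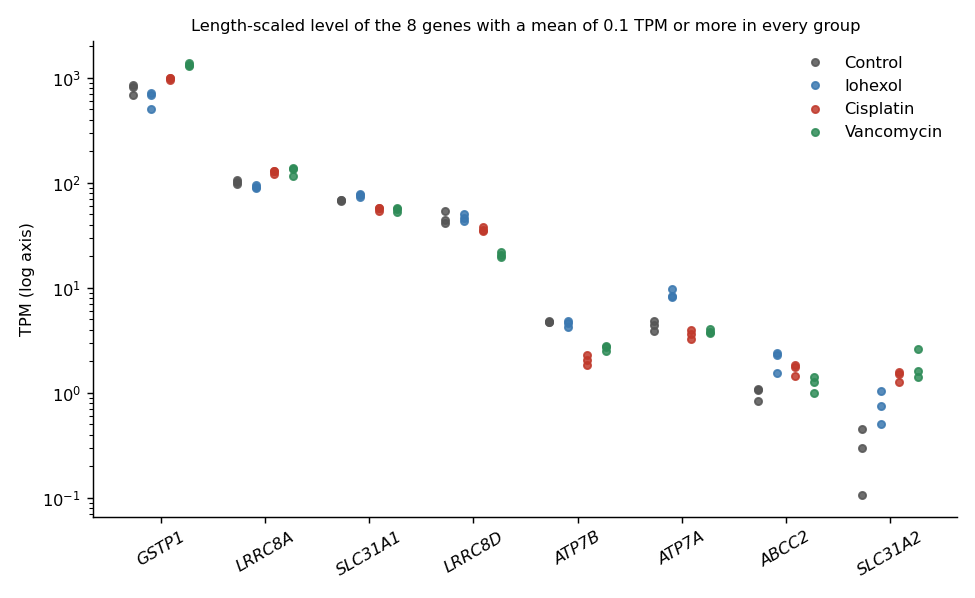
TPM of the 8 genes with a mean of 0.1 TPM or more in every group, one point per sample, on a log axis and in the order of their Control means. GSTP1 lies between 504 and 1386 TPM, and ABCC2 and SLC31A2 lie under 3 TPM in every sample.

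Among the 7 genes tested with all 3 drugs, the range of group means in log2 CPM was widest for GSTP1 (1.40), ATP7B (1.31) and ATP7A (1.29), and narrowest for SLC31A1 (0.47). For these 3 the genes with the most similar pattern over the 12 samples, out of 17073, were found by Pearson's r of log2 CPM, as a description without a test, since the samples share groups and libraries. For GSTP1 they were RRAD (r = 0.995), RPLP2 (r = 0.995) and RPL18 (r = 0.992), the latter pair for ribosomal proteins. ATP7B was most like FRMD5 (r = 0.985), NUBPL (r = 0.985) and PGAM1 (r = 0.982). The closest to ATP7A were ACBD5 (r = 0.988), FAM49A (r = 0.977) and ADGRF1 (r = 0.977).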

How the data were processed

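Poly(A) RNA of HK-2 cells was sequenced in 12 samples. The authors deposited 1 table of read counts per gene, whole numbers without normalization, with gene names and lengths of GENCODE on GRCh38. Per the labels' processing notes the tools were CASAVA 1.8, fastp, HISAT2 2.0.5, featureCounts 1.5.0-p3 and DESeq2 1.20.0. The strand setting is not given in the sources used here.

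The deposited counts were fitted with edgeR 4.0.16 (R 4.3.3) by the quasi-likelihood test, with TMM scaling and genes kept by filterByExpr (minimum count 10, minimum total 15). Each drug was fitted with Control alone, and drugs were compared in a fit of all 12 samples. P-values were adjusted by Benjamini-Hochberg over all genes tested. CPM used the TMM factors of the 12 samples, log2 CPM a prior count of 2, and TPM the lengths in the table. Intervals are 95%. Promoter sequences came from RefSeq windows of 250 bases before to 50 after a start. The script was tested on simulated data.

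The gene set and the lists were chosen with earlier results of these data known. All 10 genes are named. Other list genes are named when the adjusted p was under 0.05 and the log2 fold change above 1 or below -1 against Control, at most 4 per list by smallest p, and exceptions are marked in the text; 1 gene that met this rule is not reported here. For the 3 genes with the widest range of group means, the 3 most similar genes are named. Alternatives were DESeq2 1.42.0, limma-voom 3.58.1, RLE size factors, library size only, other filters, a replicate block, other sample sets and leaving out each replicate.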

Additional observations from a re-analysis of the deposited data

How the results depend on the processing

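Of the log2 fold changes of single genes under the alternatives, 616 kept their direction and side of the threshold, 14 lost a call, 12 gained one and 11 changed sign; the cause was not tested. The number of genes called with iohexol (2) was 4 with all 4 groups in 1 fit, and between 1 and 3 when 1 replicate was left out, with 1 without iohexol sample 2 or Control sample 2. With cisplatin (8) it was between 5 and 8 when 1 replicate was left out, with 5 without cisplatin sample 3. Between cisplatin and vancomycin (6) it was 3 with library size only. Between iohexol and vancomycin (6) it was 8 with library size only. With a log2 fold change above 1 or below -1 required as well, the numbers were 0 for iohexol, 2 for cisplatin, 1 for vancomycin, 2 between cisplatin and iohexol, 0 between cisplatin and vancomycin and 2 between iohexol and vancomycin. Without SLC31A2, which passed the filter only through the groups in which it was high, they were 1 for cisplatin, 0 for vancomycin and 1 between iohexol and vancomycin. These numbers are for the main fit. Over the alternatives the log2 fold change with vancomycin ran from -1.08 to -0.86 for LRRC8D and from 0.87 to 1.02 for GSTP1. Between iohexol and vancomycin it ran from 0.79 to 1.08 for ATP7A and from 0.79 to 1.06 for LRRC8D. Each was called under every alternative, and thus was a DEG under some.

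The sign changed for LRRC8D with iohexol without Control sample 1 (0.052, in a range of -0.18 to 0.052 over the Control samples left out), for SLC31A1 between cisplatin and vancomycin with library size only (0.016), and for ABCC2 between cisplatin and vancomycin without vancomycin sample 1 (-0.043, in a range of -0.043 to 0.25 over the samples left out). ATP7A with vancomycin lay at 0.0019 with DESeq2, 0.0064 with limma-voom, 0.0020 with RLE size factors, 0.014 with at least 10 counts in every sample, 0.042 with all 4 groups, 0.037 without vancomycin sample 3 and 0.071 without Control sample 1, in a range of -0.074 to 0.071 over the samples left out.

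Replicate numbers did not pair the samples, since 2 of 12 samples correlated best with a sample of their own number. With the replicate block the number of genes called stayed at 2, 8 and 5 against Control and at 6 in each comparison between drugs, and ATP7A with vancomycin was 0.00096.

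At this depth SLC22A2, SLC47A1 and, in Control, SLC31A2 lay at or near the floor of 3 counts, so changes in them rest on few reads. With 3 samples a group, small changes such as those of GSTP1 and ABCC2 with cisplatin depended on single libraries.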
